A study of Mus musculus with 4 samples.

Results

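The genes of the cytotoxic granule described here are the granzyme genes Gzma, Gzmb, Gzmc, Gzmd, Gzme, Gzmf, Gzmg and Gzmk, the perforin gene Prf1 and the serglycin gene Srgn, matched by symbol. All 10 had a row in the deposited table of 18560 genes, and 9 of them passed the filter on low counts. They were measured in 4 RNA-seq libraries of CD4+ T cells from the spleen of C57BL/6 mice, in which naive cells had been activated with antibodies to CD3 and CD28 to give Th0 cells, that is, activated helper cells not steered toward an effector type. The wild type group had 2 libraries, numbered 1 and 6, and the group with the genotype Setd2-CD4 cre had 2, numbered 9 and 12, called knockout here. The Setd2 enzyme trimethylates histone H3 at lysine 36 along transcribed genes. A Cre recombinase under Cd4 control acts in developing T cells, so that CD8 T cells of such mice also carry the deletion. The labels do not give the age of the mice, the Setd2 allele, whether the wild type mice carried the Cre, or whether the libraries came from separate animals. They also differ on the time of activation, with 48 in the titles, 2 days in the design text and 3 days in the treatment label. The study's title concerns Setd2 and autoimmunity caused by T cells, and the comparison here is knockout against wild type.

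Cytotoxic lymphocytes store granzymes, which are serine proteases, in secretory granules together with the pore-forming protein perforin. Both are held on serglycin, a small proteoglycan whose chondroitin sulphate chains bind positively charged proteins. On contact with a target the granule is released, perforin opens the target's membrane, and granzymes enter and cleave proteins inside the cell. The pathway is best known from CD8 T cells and natural killer (NK) cells, but activated CD4 T cells can also express granzyme B and perforin.

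The family was selected with the difference between these 4 libraries already known. Its log2 fold changes (knockout over wild type, with the standard error, SE, of the fit) are therefore given as descriptions, with no test. Total counts were between 17284613 and 20418766 per library. Levels in CPM are a gene's counts relative to the library total, after TMM scaling. FPKM, which also divides by gene length, is the unit in which genes are compared with each other. Setd2 itself stood at 157.2 and 174.5 CPM (wild type) against 127.2 and 112.9 CPM (knockout) (log2 fold change -0.47, SE 0.21, edgeR adjusted p 0.421, or -0.03 with a trend on gene length removed), a gene-level count that includes every exon, so it did not check the genotype.

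Gzmb, which encodes granzyme B, a protease that cleaves after aspartate and starts apoptosis through Bid and caspases, was among the most abundant transcripts in these cells. It stood at 3477.2 and 1735.2 CPM in wild type libraries 1 and 6, against 6750.0 and 5030.6 CPM in libraries 9 and 12 of the knockout. The knockout pair lay above the wild type pair, and the wild type libraries were as unlike each other, as a ratio, as wild type library 1 and knockout library 9. The mean was 2606.2 ± 1231.8 CPM in wild type and 5890.3 ± 1215.8 CPM in knockout cells (SD, n = 2 per group), a 2.26-fold difference (log2 1.18, SE 0.34). The log2 difference was 0.76 without wild type library 6 and 1.76 without wild type library 1. On the FPKM scale Gzmb ranked 15 and 63 among all genes in the wild type libraries and 3 and 14 in the knockout libraries. In knockout library 9 it took 0.673% of all counts. These are bulk samples, so a difference in the number of expressing cells and one in RNA per cell cannot be told apart, here or for any gene below.

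Gzma, which encodes granzyme A, a protease that cleaves after lysine or arginine, was the second granzyme by level and did not follow Gzmb. It stood at 968.0 and 459.4 CPM (wild type) against 792.5 and 717.8 CPM (knockout), so that both knockout values lay between the wild type values. Its log2 fold change was 0.08 (SE 0.34), but 0.72 without wild type library 1 and -0.36 without wild type library 6. Gzmk, a neighbour of Gzma on chromosome 13 whose product has a similar cleavage preference, was low, at 1.48 and 2.68 CPM (wild type) against 3.02 and 1.24 CPM (knockout) (log2 0.03, SE 0.64), and its groups overlapped. It had only 24 to 53 counts per library.

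**Figure D1:**
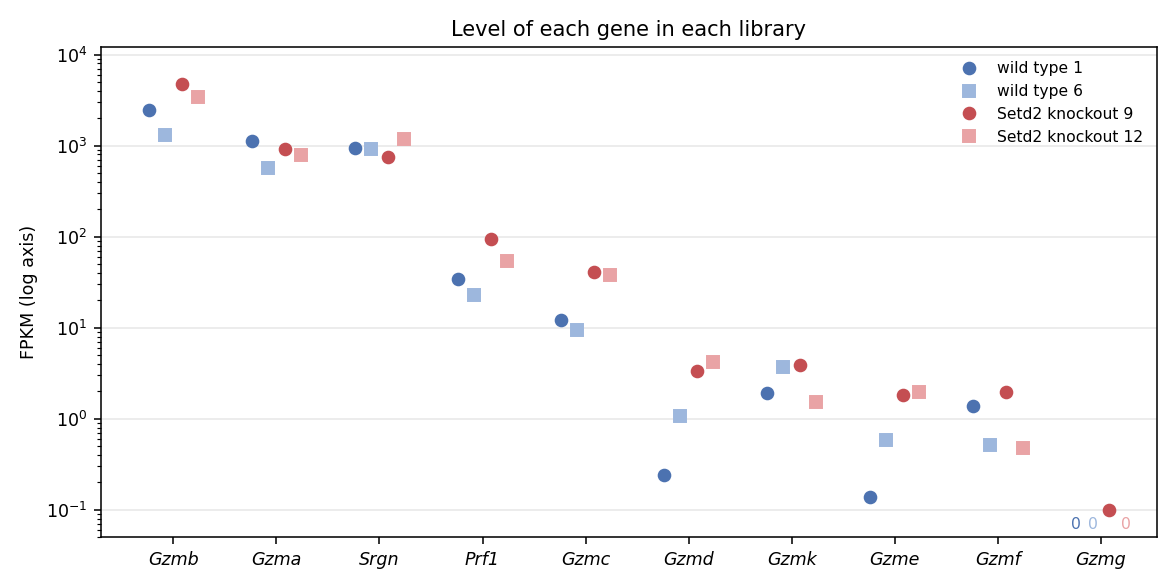
FPKM (log axis) of the 10 genes in the 4 libraries, 1 point per library, 1 column per gene. A 0 at the foot marks a gene listed at 0. Gzmb, Prf1, Gzmc, Gzmd and Gzme have the knockout points above the wild type points, and the other 5 genes overlap.

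Prf1, which encodes perforin, stood at 71.3 and 44.6 CPM (wild type) against 193.9 and 117.3 CPM (knockout). The groups did not overlap, and knockout library 9 was the highest of the 4, as it was for Gzmb. The means were 57.9 ± 18.8 and 155.6 ± 54.2 CPM (SD, n = 2 per group), a 2.69-fold difference (log2 1.43, SE 0.33). Srgn, the granule proteoglycan, did not share this pattern. It stood at 866.4 and 795.6 CPM (wild type) against 702.8 and 1141.4 CPM (knockout), with knockout library 9 the lowest and knockout library 12 the highest (log2 0.15, SE 0.26). Without knockout library 12 the value was -0.24, and without knockout library 9 it was 0.48. Per length, Srgn was on a par with Gzma, at 907.5 to 939.0 FPKM in wild type and 759.3 to 1173.3 FPKM in knockout libraries.

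The remaining granzyme genes, Gzmc, Gzmd, Gzme, Gzmf and Gzmg, lie with Gzmb (chr14:56258836-56262334, GRCm38.p6) in a cluster on chromosome 14, where they arose by duplication in rodents, and their products are less studied than granzymes A and B. Gzmc stood at 11.1 and 8.28 CPM (wild type) against 38.2 and 36.6 CPM (knockout). The knockout pair lay close together and well above the wild type pair, with means of 9.71 ± 2.02 and 37.4 ± 1.13 CPM (SD, n = 2 per group), 3.85-fold apart (log2 1.94, SE 0.25). Its replicates were the most alike of those genes whose groups did not overlap, relative to the difference between groups.

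Gzmd and Gzme were near the lower limit of detection in wild type cells. Gzmd had 4.25 and 18.47 counts in wild type and 52.73 and 80.04 counts in knockout libraries, or 0.216 and 0.934 against 3.06 and 4.13 CPM (log2 2.68, SE 0.75). Gzme had 2.41 and 9.98 against 28.5 and 36.51 counts, or 0.123 and 0.505 against 1.65 and 1.88 CPM (log2 2.51, SE 0.87). In both genes every knockout library was above every wild type library and wild type library 1 was the lowest. Without wild type library 6 the log2 values were 4.1 for Gzmd and 4.03 for Gzme, and without wild type library 1 they were 1.98 and 1.79. Both Gzmd and Gzme passed the count filter only with the help of the knockout libraries, where they were high. Their presence among the tested genes therefore already depended on that group. Gzmf overlapped between groups, at 1.24 and 0.437 against 1.74 and 0.452 CPM (log2 0.39, SE 0.88, or -0.82 without knockout library 9). Gzmg was at 0 in 3 libraries and had 1.54 counts in knockout library 9, under the 3 counts that a count of 0 allows (0.152 to 0.174 CPM by library), and was not tested. These limits cover counting error only.

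Read as a count, 5 of the 9 tested genes (Gzmb, Gzmc, Gzmd, Gzme and Prf1) had groups that did not overlap, with the knockout higher, a property of 25.4% of all 12816 tested genes, and none had the knockout lower (24.3% of all, 49.7% in either direction). By edgeR 0 of the 9 passed at an adjusted p under 0.05 over all genes, where 1 gene in all, Agpat4, was called higher (0.0078%) and none lower (0%). At an unadjusted edgeR p under 0.05, 5 of the 9 were higher (6.23% of all) and none lower (5.73%, or 12% in either direction). DESeq2 called 3 higher (0.687% of all) and none lower (0.757%, or 1.44% in either direction). Since the genes were selected on this difference, nothing is read from these shares. Gzmd and Gzme also passed the filter only with the help of the knockout libraries.

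**Figure D2:**
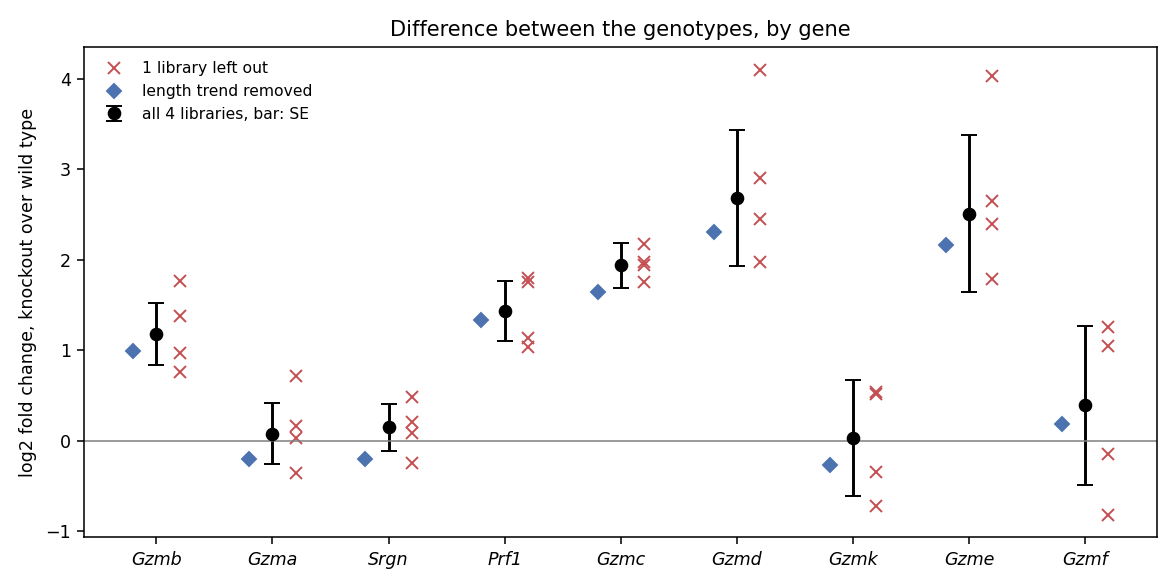
Log2 fold change (knockout over wild type) of the 9 tested genes, with black points and SE bars from all 4 libraries, red crosses for the 4 fits that leave out 1 library, and blue diamonds with the trend on gene length removed. All marks of Gzmb, Prf1, Gzmc, Gzmd and Gzme lie above 0, from 0.76 for Gzmb to 4.1 for Gzmd, whereas the marks of Gzma, Srgn, Gzmk and Gzmf fall on both sides of 0.

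Fold changes in these libraries depended on gene length. This touches the family because all its tested members but Prf1 and Gzmb have an effective length under 1000 bases. The 930 tested genes under that length had a median log2 fold change of 0.38, against 0.22 for genes from 1000 to 2000 bases, 0.00 for genes from 2000 to 4000 bases, and -0.48 above 8000. After removal of a length trend the log2 fold changes were 0.99 for Gzmb, 1.33 for Prf1, 1.64 for Gzmc, 2.31 for Gzmd and 2.16 for Gzme. In the same fit Gzma (-0.20), Srgn (-0.20) and Gzmk (-0.27) were below 0.

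Ratios between genes within a library do not depend on how libraries are scaled to each other. The ratio of Gzmb to Gzma FPKM was 2.19 and 2.30 in the wild type libraries and 5.19 and 4.27 in the knockout libraries. Wild type library 6, in which both genes were low, thus had nearly the ratio of wild type library 1. Gzmb made up 68.3% and 69.1% of the summed FPKM of the 8 granzyme genes in wild type and 83.1% and 80.1% in knockout libraries, while Gzma made up 31.2% and 30.1% against 16.0% and 18.8%. All other granzymes together were between 0.437% and 1.09% of the sum. Perforin followed granzyme B closely, with Prf1 at 1.40% and 1.76% of the Gzmb FPKM in wild type and 1.96% and 1.59% in knockout libraries, so that the groups overlapped in this ratio. Gzmc, in contrast, was 0.490% and 0.720% of Gzmb in wild type and 0.868% and 1.11% in knockout libraries. Relative to Srgn, Gzmb was 2.63 and 1.43 in wild type and 6.29 and 2.88 in knockout libraries, a wide spread within each group.

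**Figure D3:**
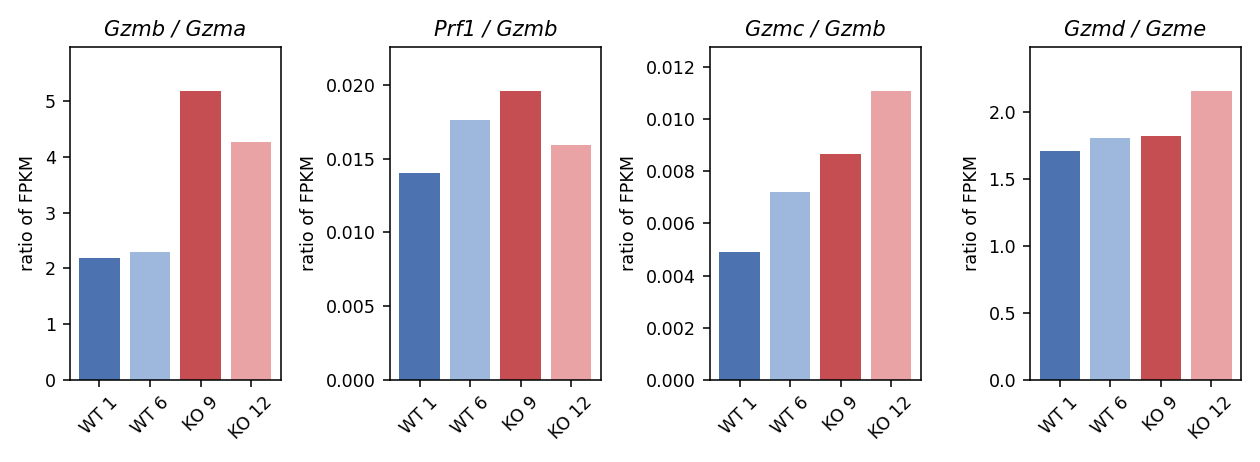
Ratio of FPKM between pairs of genes within each library (bars from 0, wild type in 2 blues, knockout in 2 reds). Gzmb to Gzma separates the groups (2.19 and 2.30 against 5.19 and 4.27), Prf1 to Gzmb overlaps, Gzmc to Gzmb is lowest in the wild type libraries, and Gzmd to Gzme stays between 1.71 and 2.16.

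Granzyme genes are alike in sequence, and reads that match several genes were shared out between them by RSEM, so the transcripts were compared. In GENCODE M21 (GRCm38) the coding sequences of Gzmd and Gzme were 93.3% identical, those of Gzme and Gzmg 89.6%, and those of Gzmd and Gzmg 86.9%. Gzmb and Gzmc were 76.3% identical, and Gzma was at most 55.6% identical to another granzyme. The first 60 coding bases of the 6 chromosome 14 genes, which encode the start of the protein, show how little separates some of them. Capitals mark bases that differ from Gzmd.
Gzmb: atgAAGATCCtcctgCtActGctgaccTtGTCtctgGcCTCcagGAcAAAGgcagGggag
Gzmc: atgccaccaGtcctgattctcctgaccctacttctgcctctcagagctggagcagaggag
Gzmf: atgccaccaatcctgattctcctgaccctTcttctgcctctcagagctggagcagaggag
Gzmg: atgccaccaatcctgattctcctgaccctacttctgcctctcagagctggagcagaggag
Gzmd: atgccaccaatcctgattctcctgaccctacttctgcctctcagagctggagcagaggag
Gzme: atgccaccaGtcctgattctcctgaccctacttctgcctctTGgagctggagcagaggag
Over this stretch Gzmg had 0 differences from Gzmd, Gzmc and Gzmf had 1 each and Gzme had 3, while Gzmb had 25.

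**Figure D4:**
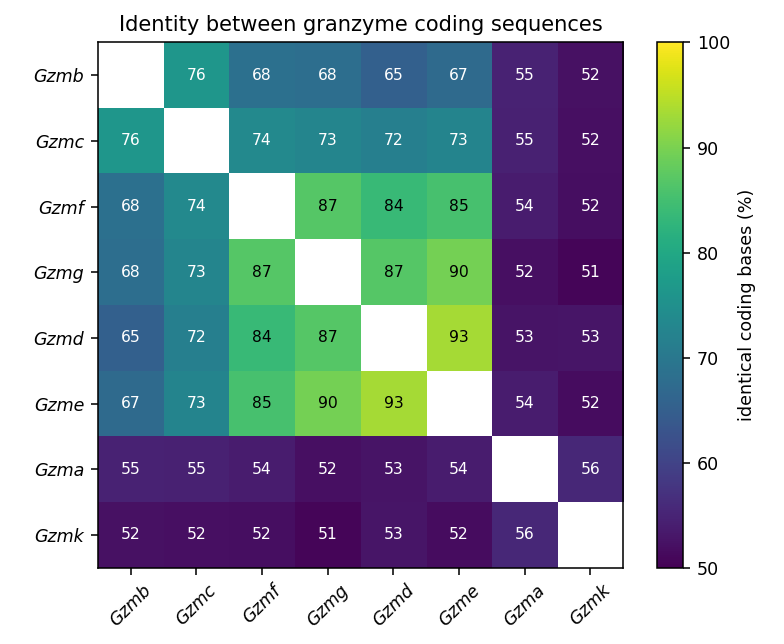
Percent of identical coding bases for each pair of 8 granzyme genes (colour from 50% to 100%, rounded value in each cell). Gzmd, Gzme, Gzmf and Gzmg form a block at 83.7% to 93.3%, Gzmc and Gzmb are less alike, and Gzma and Gzmk stand apart from all others.

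The read length is not given in the sources used here. Of all 50-base windows, 21.9% in Gzmd, 20.6% in Gzme, 19.4% in Gzmf and 19.8% in Gzmg occurred unchanged in the transcript of another gene, against 4.1% in Gzmc. Gzma, Gzmb, Gzmk, Prf1 and Srgn had no such window. Of 100-base windows, 6.7% in Gzmf were shared, with the gene model Gm4022, and 0.2% in Gzmd and in Gzmg were shared with each other, while no other member had one. Gzma and Gzmk had whole counts in every library, whereas Gzmb, Gzmc, Gzmd, Gzme, Gzmf, Prf1 and Srgn had fractional counts in each. For Gzmb the longest run shared with another granzyme was 49 coding bases, with Gzmc. The ratio of Gzmc to Gzmb FPKM ran from 0.490% to 1.11%. Gzmd and Gzme were at nearly the same ratio to each other in all 4 libraries (1.71, 1.81, 1.82 and 2.16), and their separate values are uncertain. Their summed count was 6.66 and 28.4 in wild type and 81.2 and 116.6 in knockout libraries, again with no overlap between groups.

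The promoters of the same genes are shown because the other chromosome 14 members resemble each other there too, while Gzmb does not. The 150 bases before the RefSeq start site (GRCm38.p6) are printed for the 5 genes whose groups did not overlap and for Gzma, in capitals where a searched motif matched. The motifs, searched on both strands over 250 bases, were TGANTCA (AP-1), TGTGGT (RUNX), AGGTGTNA (T-box), TGACGTCA (the cyclic AMP response element, CRE) and TTCNNNGAA (STAT), with TATAAA on the gene's strand.
Gzmb, chr14:56262335-56262484, minus strand: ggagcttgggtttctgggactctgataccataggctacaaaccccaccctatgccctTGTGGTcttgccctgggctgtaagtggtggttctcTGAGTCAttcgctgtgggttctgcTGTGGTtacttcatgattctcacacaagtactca
Gzmc, chr14:56234658-56234807, minus strand: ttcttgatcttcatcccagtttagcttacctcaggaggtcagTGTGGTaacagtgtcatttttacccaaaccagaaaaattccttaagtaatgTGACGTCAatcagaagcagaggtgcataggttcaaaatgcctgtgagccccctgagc
Gzmd, chr14:56132594-56132743, minus strand: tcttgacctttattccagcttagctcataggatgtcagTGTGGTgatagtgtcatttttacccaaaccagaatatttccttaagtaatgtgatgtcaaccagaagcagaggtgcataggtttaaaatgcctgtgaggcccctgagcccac
Gzme, chr14:56120626-56120775, minus strand: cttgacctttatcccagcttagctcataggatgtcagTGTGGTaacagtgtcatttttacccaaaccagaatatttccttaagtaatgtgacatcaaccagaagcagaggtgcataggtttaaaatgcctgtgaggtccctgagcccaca
Gzma, chr13:113100982-113101131, minus strand: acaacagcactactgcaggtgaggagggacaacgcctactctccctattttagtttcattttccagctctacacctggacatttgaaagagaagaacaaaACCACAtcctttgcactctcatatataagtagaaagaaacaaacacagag
Prf1, chr10:61297686-61297835, plus strand: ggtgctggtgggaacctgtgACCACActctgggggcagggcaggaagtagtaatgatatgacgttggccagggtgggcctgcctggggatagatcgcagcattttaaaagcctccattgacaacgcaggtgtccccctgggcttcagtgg
Over 250 bases the promoters of Gzmd and Gzme were 94.8% identical, and Gzmc matched them at 80.5% and 80.9%, whereas Gzmb matched the other 5 at 44.1% to 48.2%. The RUNX letters were found in 9 of the 11 start-site windows of the family, Srgn having 2 windows, against 14% of 32851 windows of all genes, but 5 of the 9 belong to near copies of one another. Gzmb had 2 RUNX matches and the 1 AP-1 match of the family (6.7% of all windows), 52 to 58 bases before its start. The CRE letters were found in Gzmc, Gzmf and Gzmg (1.5% of all windows). In Gzmd and Gzme the closest stretch matched at 7 of 8 bases. The T-box (2.7% of all windows) and STAT (7.0%) letters were not found in any of the 11, and TATAAA (7.6%) was found in 1 Srgn window. A match is a string of letters and not evidence of binding.

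The genes around the members were counted in the same way. Within 500 kb of a member on chromosome 14 there were 36 other genes in the table, of which 24 were tested, 4 with the knockout pair above the wild type pair and 8 with it below (25.4% and 24.3% of all genes), and their median log2 fold change was -0.11. The mast cell protease genes next to Gzme, which belong to the same protease family, were silent or nearly so, with Mcpt1, Mcpt2 and Mcpt4 at 0 in every library, Ctsg at no more than 0.207 CPM and Mcpt8 at no more than 0.826 CPM. The nearest tested gene on that side, Sdr39u1, stood at 39.8 and 36.1 against 39.2 and 43.3 CPM, and beyond Gzmb the nearest was Cenpj, at 38.6 and 44.7 against 32.9 and 21.3 CPM. Around Prf1 and Srgn on chromosome 10, 10 of 25 tested neighbours had the knockout pair above and 6 below (median 0.13), and around Gzma and Gzmk on chromosome 13 it was 2 and 2 of 9 (median 0.27).

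By the root mean square difference of centred log2 CPM over the 4 libraries, among 9638 other named genes with a mean of at least 5 CPM, the patterns most like Gzmb were those of Slco4a1 (0.05), Spire1 (0.06) and Zbtb32 (0.10). Zbtb32, a zinc finger repressor, stood at 165.9 and 80.2 CPM (wild type) against 284.2 and 258.0 CPM (knockout). Prf1 came 11th on the Gzmb list (0.18) and Gzmb 5th on the Prf1 list, which opened with Spats2 (0.14), Fndc9 (0.15) and Tmem163 (0.16). Gzmc was closest to H2-Q10 (0.18), Ddah2 (0.18) and Emilin2 (0.20), and Srgn to Sertad1, Ppp1r11 and Lyn (0.03 each). Gzma ranked 1413th from Gzmb and Srgn 5127th.

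Other genes of the pathway were taken from lists by role, and edgeR called 0 of their genes in either direction at an adjusted p under 0.05 over all genes (0.0078% of all genes higher, 0% lower). Counts at an unadjusted edgeR p under 0.05 and by DESeq2 are given in each case. Of all genes, 6.23% were higher and 5.73% lower by the first, and 0.687% higher and 0.757% lower by the second. Where 2 pairs of CPM stand against each other the wild type pair comes first. The serpins that block granzymes inside the cell had the highest median of these lists, 0.96 over 4 tested genes of 5, against 0.00 for all genes. Of these, 2 were higher at an unadjusted p and the same 2 by DESeq2, and none lower by either. Serpinb9, the inhibitor of granzyme B, stood at 66.7 and 89.1 CPM (wild type) against 219.0 and 171.7 CPM (knockout) (log2 1.33, SE 0.25, edgeR adjusted p 0.261, DESeq2 0.000331). Serpinb6b, an inhibitor of granzyme A, stood at 87.8 and 140.9 against 400.3 and 195.5 CPM (1.38, SE 0.39, edgeR adjusted p 0.384, DESeq2 0.0135). Both inhibitors had groups that did not overlap and their highest value in knockout library 9. Serpinb6a stood at 20 and 31.6 against 37.8 and 39.8 CPM, and Serpinb9b overlapped between groups.

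Of 7 tested genes that activate and sort granzymes, none was higher or lower at an unadjusted p or by DESeq2, with a median of 0.17. Ctsc, the cathepsin that removes the propeptide of granzymes, stood at 104.2 and 77.0 against 111.2 and 114.5 CPM (log2 0.32, SE 0.23). M6pr, a mannose 6-phosphate receptor, had a log2 fold change of 0.43 (SE 0.24). Igf2r (-0.32) and Gnptab (0.20), which belong to the same sorting route, had groups that overlapped.

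Of 15 tested genes of granule release, 1 was higher and 1 lower (unadjusted p) and the same 2 by DESeq2, with a median of -0.06. Sytl3, a synaptotagmin-like protein that binds Rab27, stood at 36.6 and 36.8 against 67.4 and 79.3 CPM (log2 1, SE 0.21, edgeR adjusted p 0.275, DESeq2 0.0136). Lyst, the lysosomal trafficking regulator lost in Chediak-Higashi syndrome, stood at 288.2 and 251.3 against 123.1 and 88.0 CPM (-1.35, SE 0.25, edgeR adjusted p 0.261, DESeq2 0.000102). Lyst is a long gene, and with the length trend removed its log2 fold change was -0.77. The SNARE genes Vamp8 (0.55, SE 0.26) and Vamp2 (-0.28, SE 0.22) did not pass at an unadjusted p. Among 4 tested genes of the granule membrane 1 was higher at an unadjusted p and none by DESeq2, with none lower by either. It was Nkg7, whose product is needed for granule release, at 88.1 and 100.8 against 193.0 and 120.2 CPM (0.73, SE 0.27, edgeR adjusted p 0.413, or 0.43 with the length trend removed). Lamp1 (-0.41), Lamp2 (-0.11) and Cd63 (0.30), the other 3, had no such p.

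Of 14 tested genes that build the chondroitin sulphate chains carried by serglycin, 2 were higher and 1 lower (unadjusted p) and none by DESeq2, with a median of 0.00. The sulphotransferase genes Chst12 (0.64, SE 0.24) and Chst11 (0.75, SE 0.30) were the 2 higher. Xylt1, which starts the chain, was the 1 lower (-1.88, SE 0.61), at 3.2 and 2.07 against 0.754 and 0.671 CPM. Csgalnact1 followed by p value (1.12, SE 0.61). Of 11 tested granzyme substrates, 3 were higher at an unadjusted p, none lower and none by DESeq2, with a median of 0.37. They were the nuclease gene Trex1 (0.81, SE 0.27, or 0.48 with the length trend removed), Set (0.75, SE 0.29) and the DNA repair gene Apex1 (0.92, SE 0.36). Bid, cleaved by granzyme B, followed (0.48, SE 0.22).

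**Figure D5:**
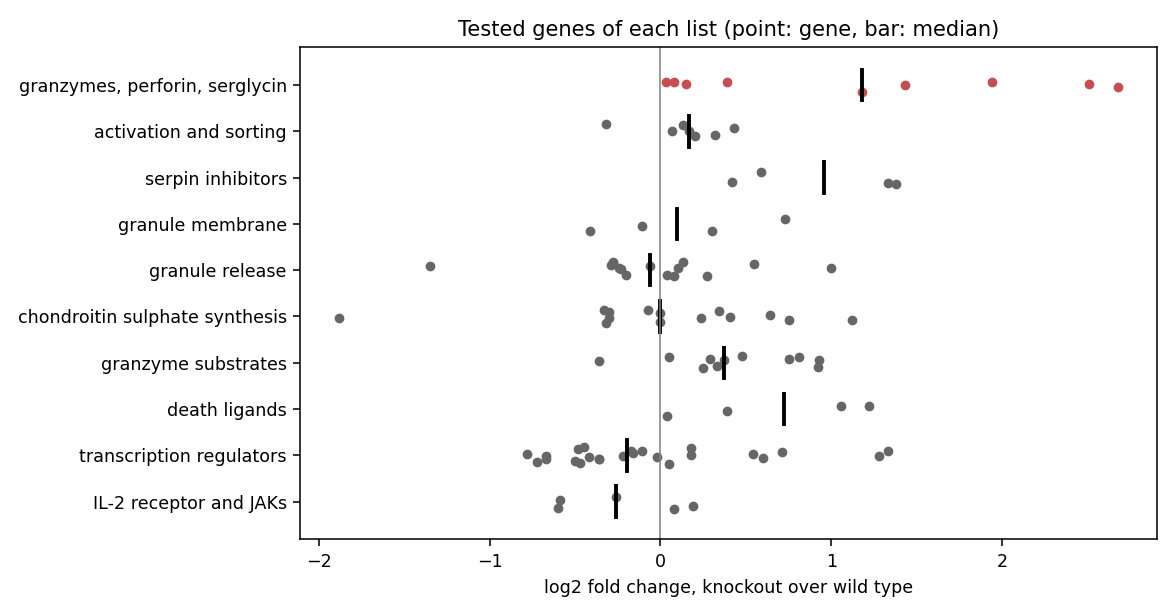
Log2 fold change (knockout over wild type) of each tested gene by list, 1 point per gene, with a black bar at the median of the list. The granzymes, perforin and serglycin are in red. The serpin inhibitors (median 0.96) and death ligands (0.72) lie to the right of 0, and granule release (-0.06) and chondroitin sulphate synthesis (0.00) are centred near 0.

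Of 24 tested transcription regulators of cytotoxic genes, 3 lay above and 3 below wild type at an unadjusted p, and DESeq2 called 2 higher and none lower, with a median of -0.20. The 2 were Eomes, which drives perforin and granzyme B in CD8 T cells, at 10 and 10.9 against 28.7 and 22.1 CPM (edgeR adjusted p 0.261), and Id3, at 5.11 and 5.61 against 13.3 and 13.8 CPM (edgeR adjusted p 0.275). Of the 24, 5 had the knockout pair above the wild type pair and 9 below (25.4% and 24.3% of all genes). Among other well known regulators of these genes, Tbx21, Runx3 and Prdm1 overlapped between groups. Tbx21 stood at 174.4 and 163.1 against 126.4 and 163.3 CPM, and Runx3 at 435.9 and 514.3 against 479.3 and 365.3 CPM. Prdm1 stood at 112.2 and 56.7 against 72.4 and 47.0 CPM. These 3 were named after their values were seen. Runx1 (-0.72, SE 0.21) and Notch1 (-0.67, SE 0.24) had the smallest p among those lower, and with the length trend removed they stood at -0.40 and -0.19. Of 4 death ligand genes, 1 was higher by either count and none lower (median 0.72), Fasl, whose product kills through the receptor Fas without granules, at 8.85 and 8.35 against 20.8 and 19.2 CPM (1.22, SE 0.25, edgeR adjusted p 0.275). Lta (1.06, SE 0.49), Tnfsf10 (0.39, SE 0.46) and Tnf (0.04, SE 0.39) overlapped between groups. Of the 5 genes of the IL-2 receptor and its kinases, 2 were lower at an unadjusted p and none by DESeq2, with none higher by either (median -0.26), Jak3 (-0.60, SE 0.21, or -0.48 with the length trend removed) and Jak1 (-0.59, SE 0.22, or -0.36), whereas the receptor chains Il2rb (0.19) and Il2rg (-0.26) overlapped between groups. Of the other relatives searched, Gzmm stood at no more than 1.06 CPM and Mpeg1, the macrophage relative of perforin, had a log2 fold change of -0.53 (SE 0.31).

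Markers of other cells that can carry granzymes were also measured. T cell markers were abundant, with Cd4 at 131.4 to 197.3 FPKM, and their sum was 2490.3 and 2789.9 CPM (wild type) against 2133.0 and 2053.1 CPM (knockout). Of these 7 markers, 6 had the knockout pair below the wild type pair (24.3% of all tested genes) and none had it above. Their median log2 fold change was -0.42, or -0.63 with the length trend removed. At an unadjusted edgeR p 1 was lower (5.73% of all genes), and none by DESeq2. The CD8 genes were also present, Cd8b1 at 100 to 169.0 FPKM and Cd8a at 37.93 to 61.37 FPKM, and both together summed to 260.0 and 330.4 against 432.0 and 323.1 CPM. Knockout library 9 was the highest library for this sum, as it was for Gzmb and Prf1. Wild type library 1 and knockout library 12 were below wild type library 6 for the sum. Gzmb and Prf1, in contrast, were lowest in wild type library 6. The 9 NK markers summed to 25.29 and 61.39 against 108.2 and 55.7 CPM, with a median log2 fold change of 0.74. Klrk1, the marker with the highest mean CPM, stood at 10.5 and 22.6 against 59.2 and 21.7 CPM. Of the 9, Klrb1c (0.74), Klre1 (1.02) and Fcer1g (0.88) had the knockout pair above the wild type pair, and Klra4 (-1.02) had it below. The other 5, with Ncr1 at no more than 0.759 CPM, overlapped between groups. Of all tested genes, 25.4% had the knockout pair above and 24.3% had it below. Mast cell and basophil markers summed to 2.645 and 8.194 against 12.88 and 7.021 CPM, with 3 of the 9 at 0 in every library. The 4 tested had positive log2 fold changes (median 0.91). Among them Cpa3, a mast cell carboxypeptidase (4.83), reached the count filter only through the knockout libraries, so the filter fixed its sign. Kit, the most abundant of the 9, stood at 1.63 and 5.51 against 7.08 and 2.79 CPM and overlapped between groups. Gata2 (0.75) also overlapped, and Ms4a2 (1.07) had the knockout pair above the wild type pair. Cpa3 had 1 and 0 counts in wild type and 15 and 18 counts in knockout libraries. The IgE receptor gene Fcer1a had 0 and 0 against 12 and 3 counts. B cell RNA was present, with Cd79a at 45.6 and 31.7 against 42.9 and 68.6 CPM and Cd79b at 42.1 and 29.4 against 34.2 and 70.8 CPM, both highest in knockout library 12. Myeloid markers summed to between 32.36 and 47.38 CPM. Sox13 was the 1 gamma-delta T cell marker in the table used here, at no more than 0.620 CPM. Haemoglobin genes summed to 6.206 and 19.75 (wild type) against 2.146 and 7.228 CPM (knockout). Of the 3 tested (median -1.79), 2 were lower at an unadjusted edgeR p (5.73% of all genes) and 1 by DESeq2 (0.757%). Hbb-bs, with the highest mean CPM, stood at 3.01 and 10.4 against 1.16 and 1.2 CPM (-2.5, SE 0.64, edgeR adjusted p 0.349, DESeq2 0.0281). The part of other cells in the differences of the granule genes was not tested.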

How the data were processed

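RNA-seq of 4 libraries was analysed from 1 deposited table. Per the submitters' processing notes the authors used Bowtie2 and RSEM with GRCm38.p6 and mm10. Tool versions and options are unknown here. The deposited expected counts, in which RSEM shares reads that match several genes, were rounded for testing. The deposited expression values carry no unit in the header and were taken as FPKM, made by the authors. Another 4 columns, of averages, were left out. Of the gene IDs, 18424 matched RefSeq (GRCm38.p6).

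Genes were filtered with filterByExpr (minimum count 10), scaled by TMM (factors 1, 1.056, 0.998 and 0.949) and tested with edgeR 4.0.16 by its quasi-likelihood F test (limma 3.58.1, R 4.3.3), robust, two-sided, with Benjamini-Hochberg adjustment over 12816 genes and a threshold of 0.05. The SE comes from the F statistic. DESeq2 1.42.0 was an alternative. The test was also run on simulated data, whose outcome is not reported here. Samples were not paired. The labels do not say that the 2 libraries per group came from separate animals, so p-values reflect the spread among these libraries alone, possibly a technical one. All members and lists were chosen with earlier results of these data known. Named genes were the members, the 4 of smallest p in each list, the most abundant of each marker list, the 3 nearest patterns and, of the neighbours, those nearest and the mast cell proteases. Of the marker genes, Ncr1, Klrb1c, Klre1, Klra4, Fcer1g, Cpa3, Fcer1a, Gata2, Ms4a2, Cd79a, Cd79b and Cd8a were picked after the values were seen. Gzmn, a further granzyme gene, is not analysed here. The sum of the B cell markers is not reported here. Windows and identities came from GENCODE M21 transcripts and promoters from RefSeq.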

Additional observations from a re-analysis of the deposited data

How the results depend on the processing

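There were 14 alternative settings. Gzmb, Gzmc, Gzmd, Gzme and Prf1 stayed above 0 in every one that could be fitted, from 0.76 to 1.76 for Gzmb, 1.64 to 2.17 for Gzmc, 1.57 to 4.1 for Gzmd, 1.1 to 4.03 for Gzme and 1.04 to 1.8 for Prf1. The lowest Gzmb value was without wild type library 6 and the highest without wild type library 1. The values of 1.57 and 1.1 came from log2(FPKM + 1), whose pseudocount is near the level of those genes. Signs turned for Gzma (-0.20 with the length trend removed, -0.36 without wild type library 6, 0.72 without wild type library 1), Srgn (-0.20 with the length trend removed, -0.24 without knockout library 12), Gzmf (-0.82 without knockout library 9, -0.15 without wild type library 6) and Gzmk (-0.72 without knockout library 9, 0.54 without knockout library 12). With a minimum count of 50, Gzme and Gzmf were not tested.

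The count of genes higher and lower over all genes, 1 and 0 in edgeR, was 88 and 97 in DESeq2 and 48 and 33 with no filter on low counts. Leaving out 1 library gave between 0 and 98 higher and between 0 and 70 lower, the most in both without wild type library 1. The lone library of a group is then assumed to vary like the other group. No paired analysis was possible because the groups share no replicate numbers. Depth limits Gzmd, Gzme, Gzmf, Gzmg and Gzmk, each with fewer than 100 counts per library.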
